A study of Mus musculus with 4 samples.

Results

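The medial nasal and mandibular processes, which reach the midline of the face, were compared with the lateral nasal and maxillary processes, which lie to its sides. The tissue was dissected from wild-type mouse embryos at stage e11.5, and each process gave 1 bulk RNA-seq library of mixed cell types. The sources used here give neither the strain nor how many embryos each library holds. The sample titled medial nasal process carries beside its tissue name the abbreviation of the lateral nasal process, and it was grouped by its title. The sides were thus 2 libraries against 2 libraries of different processes, which are not replicates of one another, and no difference was tested against a spread between embryos.

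Levels are given in CPM, counts per 1000000 of the library's counts over mouse Ensembl genes. The libraries held 13216190 to 16163913 such counts, with 21779 to 22197 genes detected. Where 2 values are given for a side, they follow the order medial nasal then mandibular for the midline side and lateral nasal then maxillary for the lateral side. A gene was called higher on a side when it reached 1 CPM in both libraries of that side and its lower value there was at least 1.5-fold above the higher value of the other side, after 0.5 CPM had been added to each. Of 43346 gene entries, 14879 reached 1 CPM in both libraries of a side and were compared in this way, and these are the genes called tested below. By this rule 216 genes (1.45% of those tested) were higher on the midline side and 49 (0.329%) were higher on the lateral side. The midline libraries stood above the lateral libraries by any amount, without overlap, for 3628 genes (24.4%), and the lateral libraries above the midline libraries for 3764 (25.3%). The number called higher on the midline side was 763 without the medial nasal, 1130 without the mandibular, 579 without the lateral nasal and 565 without the maxillary library, since a side of 1 library meets the rule more easily. The number higher on the lateral side was 379, 181, 221 and 234 in the same order.

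At this stage the facial processes consist mainly of neural crest mesenchyme under an epithelium that sends signals to it. Sonic hedgehog, a secreted protein made by the epithelium of the oral and nasal midline, acts through its receptor Ptch1 and the Gli transcription factors, and forkhead transcription factors of the Foxd, Foxf, Foxc and Foxl families are among the genes it activates in facial mesenchyme. Wnt and BMP signals, retinoic acid and the Iroquois homeobox genes also pattern the face. In bulk tissue, fewer cells of a type and less RNA per cell cannot be told apart.

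Foxd1, a forkhead factor of the facial mesenchyme, had the largest gap between the sides, with 0.5 CPM added, of any protein-coding gene higher on the midline side. It stood at 31.2 CPM in the medial nasal and 21.9 CPM in the mandibular library, against 5.51 CPM in the lateral nasal and 5.85 CPM in the maxillary library. The lower midline value exceeded the higher lateral value 3.74-fold (95% interval 2.94 to 4.78). Intervals of folds here and below are exact and cover counting error only. Shh stood at 4.54 and 4.09 CPM on the midline side and at 0.742 and 1.73 CPM on the lateral side. Its sides were 2.33-fold apart (interval 1.45 to 3.84), and both midline values rested on no more than 60 counts. Foxf1, a factor of mesenchyme next to signalling epithelia, stood at 24.8 and 31.8 CPM against 3.53 and 14.0 CPM. The maxillary level of Foxf1 lay well above the lateral nasal level, and the gap between the sides was 1.78-fold (interval 1.49 to 2.12). Its relative Foxf2 had the same order of libraries, at 12.9 and 20.8 CPM against 2.66 and 10.6 CPM, but its gap of 1.22-fold (interval 0.980 to 1.52) did not meet the rule. Of the 4 genes that marked the contrast, Foxd1, Shh and Foxf1 were called and Foxf2 was not. All 4 belong to the lists of hedgehog genes used below, which were made with earlier results of these data known. Nothing is therefore read from this count.

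Of the 8 forkhead genes listed as responsive to hedgehog signals, 5 were called higher on the midline side and none on the lateral side. The shares over all tested genes were 1.45% and 0.329%. Foxl1, which is among the 5, and Foxe1, which was not called, were below 1 CPM in the lateral nasal library. They were thus tested only through the midline side, and the count is partly fixed by the choice of tested genes. Foxd2, a relative of Foxd1, stood at 13.3 and 10.2 CPM on the midline side and at 3.77 and 2.79 CPM on the lateral side. Foxc2, which acts in mesenchyme and vessels, stood at 12.6 and 10.2 CPM against 6.25 and 2.79 CPM. Foxl1 stood at 3.71 and 6.36 CPM against 0.866 and 2.21 CPM, and its count was uncertain, meaning that the 2 estimates of a gene's count in the files, expected and posterior mean, differed by 10% or more in a library. In these genes each midline library lay above each lateral library. Foxc1 divided the libraries differently, since its level was 62.0 CPM in the medial nasal and 42.7 CPM in the lateral nasal library and 14.8 and 10.1 CPM in the mandibular and maxillary libraries. Foxe1, a factor of the oral and thyroid epithelium, stood at 1.89 and 4.90 CPM against 0.557 and 3.05 CPM, with overlapping sides. Within each pair of neighbouring processes both genes were nevertheless higher in the midline process. The median difference over the 8 genes, midline minus lateral on the log2 scale, was 1.5, with 1.66 between the nasal and 1.25 between the first arch processes, beside 0.00 over all genes tested. This list was made with earlier results of these data known.

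**Figure D1:**
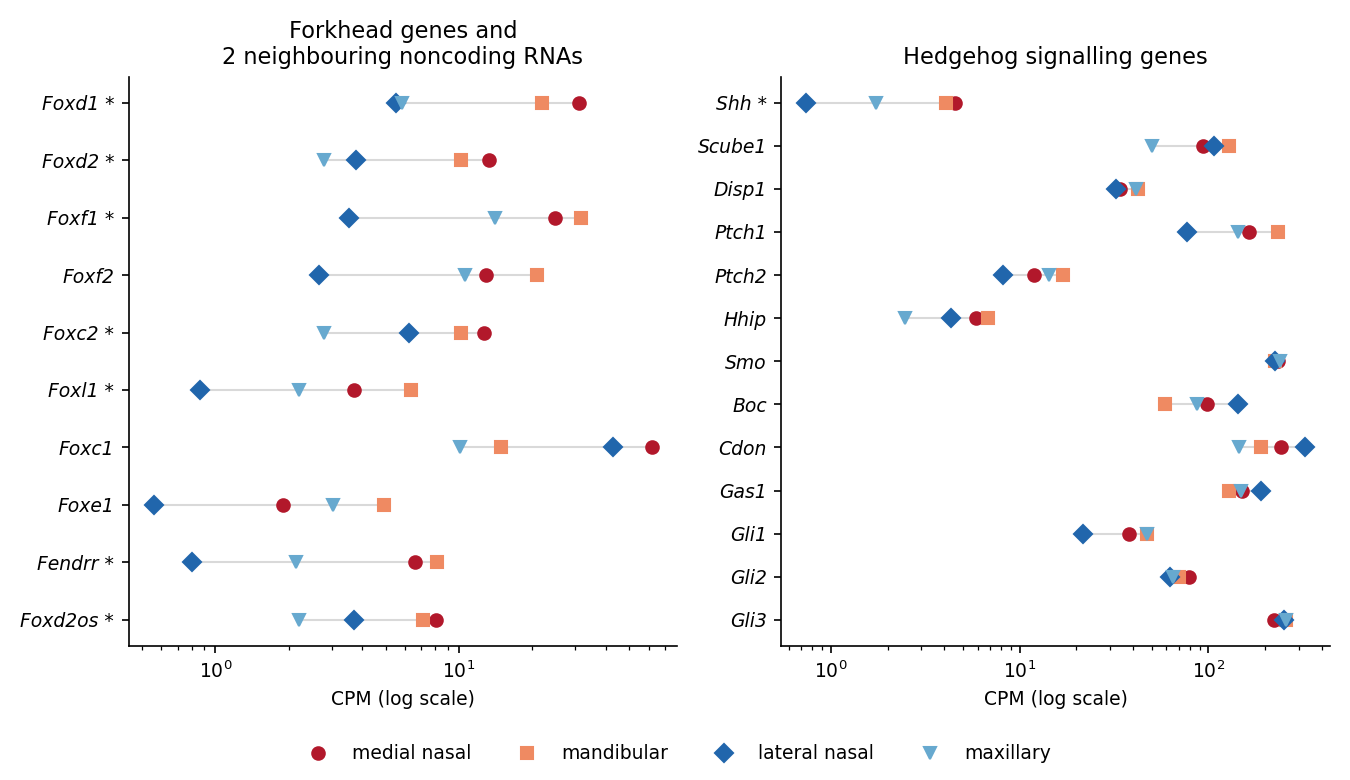
CPM on a log scale of forkhead genes with 2 noncoding RNAs (left) and of hedgehog signalling genes (right) in 4 libraries, 1 point each, without error bars for want of replicates; an asterisk marks genes called higher on the midline side. Foxd1 stood at 31.2 and 21.9 CPM on the midline side and at 5.51 and 5.85 CPM on the lateral side, while the points of Smo and Gli3 lie close together.

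Several of the forkhead genes are neighbours of one another or of a noncoding RNA gene. On chromosome 8 of GRCm38, Foxf1 (121084386 to 121088144), Foxc2 (121116171 to 121118895) and Foxl1 (121127940 to 121130644) are transcribed in the same direction. The noncoding RNA gene Fendrr (121054882 to 121083110) starts 1276 bases from Foxf1 on the opposite strand and is known to act in lateral plate mesoderm. Fendrr stood at 6.58 and 8.11 CPM on the midline side against 0.804 and 2.14 CPM on the lateral side. Its libraries had the same order as those of Foxf1. Mthfsd, a gene of folate metabolism that lies between Foxf1 and Foxc2, stood at 27.6 and 27.0 CPM against 25.7 and 29.8 CPM and did not separate the sides. On chromosome 4, Foxd2 (114906282 to 114908873) and the noncoding RNA gene Foxd2os (114909257 to 114921967) start 384 bases apart on opposite strands. Foxd2os stood at 8.02 and 7.09 CPM against 3.71 and 2.21 CPM, and the entries 9130410C08Rik and Gm12830 nearby were also called. The next genes on the far side of Foxd2os, Cmpk1 and Stil, had log2 differences of 0.06 and 0.05.

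The stretches before the starts of Foxd2 and Fendrr are shown because each lies between a pair of genes that were both higher on the midline side. They are the 250 bases before the start of each gene in RefSeq on GRCm38.p6, 5′ to 3′ on the gene's own strand, with CG dinucleotides in capitals, and they overlap no exon annotated by GENCODE.
Foxd2, chr4:114908899-114909148, minus strand: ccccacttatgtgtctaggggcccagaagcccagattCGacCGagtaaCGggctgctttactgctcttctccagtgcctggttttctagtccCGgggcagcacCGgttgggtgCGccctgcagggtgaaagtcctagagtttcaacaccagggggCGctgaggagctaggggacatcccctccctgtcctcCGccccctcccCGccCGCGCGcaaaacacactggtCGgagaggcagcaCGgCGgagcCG
Fendrr, chr8:121083111-121083360, minus strand: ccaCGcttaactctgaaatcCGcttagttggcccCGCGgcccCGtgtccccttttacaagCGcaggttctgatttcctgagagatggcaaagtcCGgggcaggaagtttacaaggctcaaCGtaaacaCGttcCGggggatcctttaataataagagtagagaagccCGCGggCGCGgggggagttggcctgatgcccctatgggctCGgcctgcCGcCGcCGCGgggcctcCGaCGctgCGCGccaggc
The Foxd2 stretch held 16 CG dinucleotides and the Fendrr stretch 23, beside a median of 17 over tested protein-coding genes. The Gli binding motif TGGGTGGTC, searched on both strands in such stretches, was in 0 of 79 protein-coding midline genes with a promoter entry and 0 of 28 lateral ones. It was in 21 of 10134 tested protein-coding genes (0.207%) and in 74 of 32851 promoter windows (0.225%). Windows of this length hold the motif too rarely for the members to be told apart from other genes. The median number of CG dinucleotides was 14 over midline and 7.5 over lateral members.

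**Figure D2:**
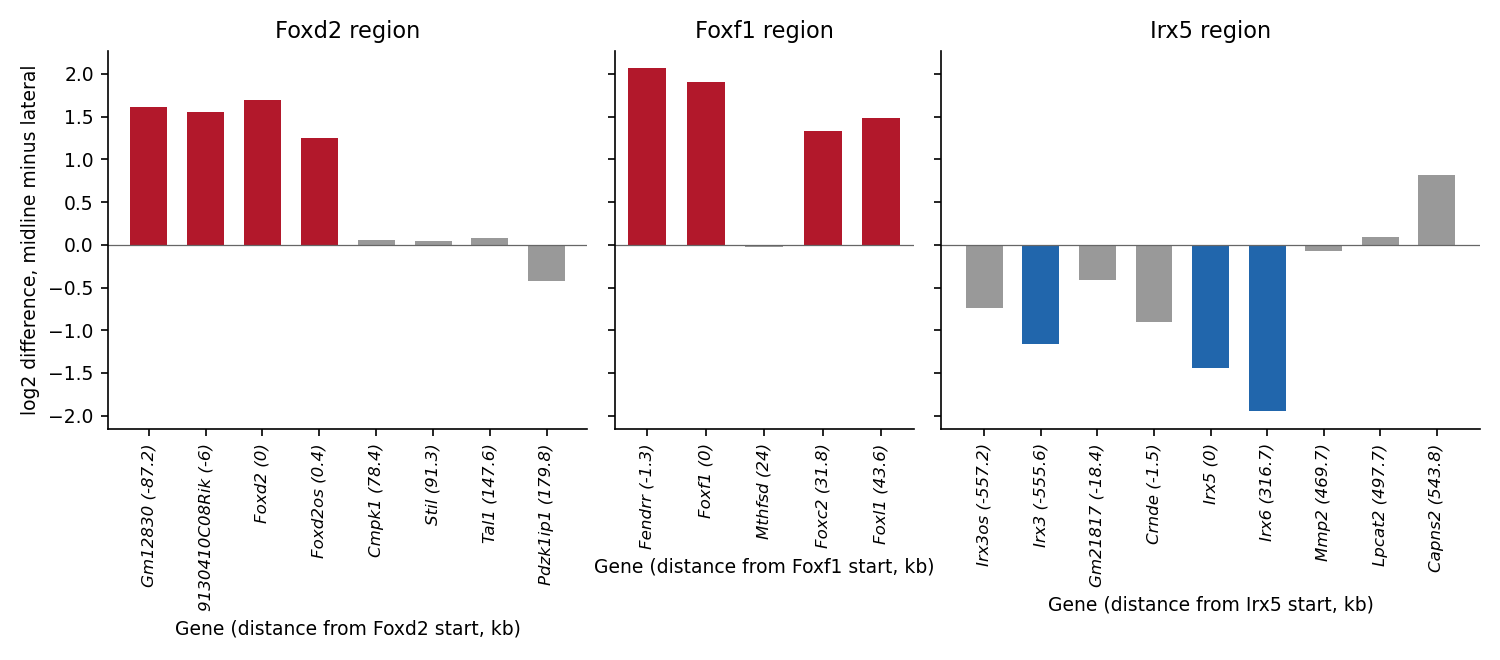
Difference in log2 (CPM + 0.5), mean of the midline minus mean of the lateral libraries, of the tested genes around Foxd2, Foxf1 and Irx5, in order along the chromosome with the distance of each start in kb; red bars are genes called higher on the midline side, blue bars genes called higher on the lateral side and grey bars genes not called. Mthfsd, at -0.02, lies between Foxf1 at 1.91 and Foxc2 at 1.33.

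Most other genes of hedgehog signalling did not meet the rule. Over ligand, receptor, transducer and forkhead genes together, 6 of 26 tested were called higher on the midline side and none on the lateral side. Over all tested genes these shares were 1.45% and 0.329%. The 6 are Shh and the 5 forkhead genes already counted, so the number adds nothing beyond those genes. Shh, like Foxl1, was below 1 CPM in the lateral nasal library and was tested only through the midline side. This count too is partly fixed by the choice of tested genes. The receptor gene Ptch1, itself a target of the pathway, stood at 165 and 233 CPM on the midline side against 77.0 and 144 CPM on the lateral side. Its sides did not overlap, with a gap of 1.15-fold (interval 1.08 to 1.22). Ptch1 was 2.15-fold higher in the medial than in the lateral nasal process (interval 2.0 to 2.30) and 1.62-fold higher in the mandibular than in the maxillary process (interval 1.53 to 1.71). The sides did not overlap either for Hhip, which encodes a binding protein that restrains the ligand, at 5.90 and 6.80 CPM against 4.33 and 2.47 CPM. Gli1, the most direct readout of the pathway, stood at 37.9 and 47.4 CPM against 21.7 and 47.1 CPM. Gli1 therefore differed between the nasal processes and hardly between the first arch processes. The signal transducer Smo (226 to 235 CPM on the midline and 225 to 238 CPM on the lateral side) and Gli3 (223 to 258 CPM and 252 to 257 CPM) overlapped. The coreceptor Boc had the other direction in both pairs. Its level was 0.688-fold in the medial relative to the lateral nasal process (interval 0.642 to 0.736). In the mandibular relative to the maxillary process it was 0.682-fold (interval 0.624 to 0.745). Of the 13 receptor and transducer genes, 3 stood above the lateral libraries without overlap and 0 above the midline libraries. The sides of Boc thus overlapped, and nothing is read from this 1 gene. The median over the 26 genes was 0.39, and that of the 13 receptor and transducer genes was 0.00. Among 9 further tested genes listed as responsive to hedgehog, none was called.

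Some genes of cartilage were higher on the midline side. Of 10 tested cartilage and bone genes, 3 were called higher on the midline side and none on the lateral side, beside 1.45% and 0.329% of all tested genes, and the list median was 0.64. Col2a1, the main collagen of cartilage, stood at 416 and 248 CPM on the midline side against 151 and 163 CPM on the lateral side, a gap of 1.52-fold (interval 1.45 to 1.61). Col9a1, which binds to its fibrils, stood at 70.6 and 92.9 CPM against 42.4 and 36.7 CPM, and Acan, the large cartilage proteoglycan, at 3.03 and 4.17 CPM against 1.05 and 0.260 CPM. Acan was below 1 CPM in the maxillary library and was tested only through the midline side. The count of 3 is thus partly fixed by the choice of tested genes. Col9a2 (31.7 and 27.0 CPM against 16.8 and 9.88 CPM) and the matrilin gene Matn4 (2.88 and 5.04 CPM against 1.55 and 1.10 CPM), which the list did not hold and which were named after their values were seen, were members too. Their regulator Sox9 was higher in the midline process of each pair, at 116 against 40.9 CPM between the nasal and 31.3 against 18.5 CPM between the first arch processes, but its sides overlapped. The bone regulator Runx2 also overlapped, at 33.9 and 48.1 CPM against 35.7 and 60.8 CPM.

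The members with the largest gaps after Foxd1 included several genes known from neurons. Islr2, which encodes a membrane protein of growing axons, stood at 24.6 and 17.8 CPM on the midline side against 6.06 and 4.68 CPM on the lateral side, a gap of 2.93-fold (interval 2.31 to 3.74). Ntrk2, the receptor of brain-derived neurotrophic factor, stood at 14.5 and 17.3 CPM against 4.70 and 6.37 CPM. Adcyap1r1, a neuropeptide receptor, stood at 6.28 and 6.29 CPM against 2.72 and 2.53 CPM, and Sez6l and Myo16 were below 5 CPM everywhere. General neuronal markers did not follow the sides. Of 12 tested genes of the neuron list none was called, and their median difference was 1.13 between the nasal and -1.34 between the first arch processes. Their summed level was 446 CPM in the medial nasal and 98.3 CPM in the mandibular library against 220.4 CPM in the lateral nasal and 193 CPM in the maxillary library. Among 34 tested axon guidance genes, Slit1, a repellent ligand, was called higher on the midline side (4.77 and 3.14 CPM against 1.55 and 0.585 CPM) and the netrin receptor gene Unc5d on the lateral side (6.66 and 5.63 CPM against 10.9 and 12.2 CPM). This was 1 gene in each direction, beside 1.45% and 0.329% of all tested genes, and nothing is read from such counts. Slit1 was below 1 CPM in the maxillary library and was tested only through the midline side. The related BMP coreceptors and repulsive guidance molecules Rgma and Rgmb, chosen after their values were seen, had nearly equal levels within a side. Rgma stood at 23.5 and 21.8 CPM against 11 and 12.1 CPM, and Rgmb at 25.2 and 24.6 CPM against 11.9 and 11.1 CPM.

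Transcription factor genes among the midline members differed in how alike their midline libraries were. The LIM homeobox gene Lhx9 stood at 4.39 and 3.22 CPM on the midline side against 0.557 and 0.845 CPM on the lateral side. Plagl1, an imprinted zinc finger gene, stood at 189 and 440 CPM against 111 and 64.8 CPM. The orphan nuclear receptor Nr2f2 stood at 79.8 and 139 CPM against 47.0 and 45.9 CPM, and Ebf2, a factor of mesenchyme and fat precursors, at 34.0 and 53.6 CPM against 19.3 and 13.9 CPM. For these 3 genes the mandibular value was the highest, while the 2 lateral libraries lay closer together. Adnp, a chromatin regulator at 230.2 and 248 CPM against 136 and 151 CPM, and the Wnt pathway factor Tcf7l2, at 59.5 and 44.1 CPM against 28.8 and 28.9 CPM, were more even. The noncoding RNA Dlx6os1, transcribed from the Dlx5 and Dlx6 locus, stood at 36.3 and 76.4 CPM against 10.2 and 15.3 CPM. The noncoding entries B130024G19Rik, whose start lies 1825 bases from that of Nr2f2, and Gm6878 near Ebf2 were called in the same direction, and were chosen after their values were seen.

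The other midline members named for their level or gap had varied roles. Lama1, a laminin chain of the basement membrane, stood at 105 and 101 CPM on the midline side against 66.6 and 54.7 CPM on the lateral side. Creb3l2, a factor for the secretion of cartilage matrix, stood at 84.2 and 96.0 CPM against 47.9 and 52.8 CPM. Asap1, Dock6, Zfp362 and Prr12 stood between 42.1 and 103 CPM on the midline side and between 24.9 and 65.8 CPM on the lateral side. Cobl, an actin nucleator, had nearly equal midline values of 16.9 and 17.0 CPM against 6.25 and 4.42 CPM, a gap of 2.70-fold (interval 2.13 to 3.45). Masp1, a complement protease with a role in crest cell migration, Myocd, a regulator of smooth muscle genes, and Ssc5d had between 1.59 and 3.36 CPM on the midline side and at most 0.650 CPM on the lateral side. Signal genes chosen after their values were seen were the growth factor gene Hgf (6.81 and 7.24 CPM against 3.77 and 2.08 CPM) and the R-spondin receptor gene Lgr5 (30.2 and 35.3 CPM against 14.1 and 18.7 CPM). Of 17 tested genes of the retinoic acid list, the receptor gene Rxrg alone was called higher on the midline side and Aldh1a1 alone on the lateral side. Over all tested genes 1.45% and 0.329% were called. Rxrg stood at 1.82 and 3.65 CPM against 0.371 and 0.975 CPM, and its interval (0.938 to 3.82 around 1.86-fold) held 1. Each of these genes was below 1 CPM in both libraries of its lower side. Each was thus tested only through the side where it is high, and nothing is read from the counts. Gm5127 reached 1.82 and 3.58 CPM against 0 and 0.325 CPM.

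On the lateral side, the clearest group was the Iroquois cluster of chromosome 8, which encodes homeobox factors of regional patterning. Irx5 (92357625 to 92376286 of GRCm38) stood at 41.6 and 50.1 CPM on the lateral side against 16.6 and 16.4 CPM on the midline side, a gap of 2.50-fold (interval 2.14 to 2.93). Irx3 (91798525 to 91802067) stood at 38.6 and 49.1 CPM against 21.4 and 17.1 CPM. Irx6 (92674288 to 92680956) was lower in level, at 4.64 and 5.13 CPM against 0.984 and 0.804 CPM, and its gap was the larger at 4.72-fold (interval 2.60 to 9.27). All 3 genes of the cluster were thus called, with each lateral value above each midline value. The noncoding neighbours Crnde (8.04 and 13.3 CPM against 4.69 and 6.07 CPM) and Irx3os (2.48 and 1.63 CPM against 0.913 and 1.10 CPM) had the same direction and did not meet the rule. The genes beyond Irx6, Mmp2 and Lpcat2, had log2 differences of -0.07 and 0.09.

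Foxl2, a forkhead factor of the eyelid mesenchyme and the ovary, was the forkhead gene called higher on the lateral side. It stood at 1.98 and 4.48 CPM on the lateral side against 0.681 and 0.512 CPM on the midline side. The noncoding RNA Foxl2os, whose start overlaps that of Foxl2 on the opposite strand, reached 11.1 and 29.4 CPM against 2.19 and 1.61 CPM, a gap of 5.05-fold (interval 3.40 to 7.75). Both were highest in the maxillary library. The transcription factor genes Hey2, a Notch target, and Atoh8 stood at 40.2 and 73.0 CPM against 10.9 and 25.4 CPM and at 15 and 12.7 CPM against 8.02 and 7.75 CPM.

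A pair of genes that act on local signals had larger gaps than Foxl2, Hey2 and Atoh8. Gdf10, a ligand of the TGF-beta family, stood at 14.1 and 21.1 CPM on the lateral side against 2.57 and 3.80 CPM on the midline side, a gap of 3.71-fold (interval 2.74 to 5.12). Hpgd, which breaks down prostaglandins, stood at 48.1 and 42.8 CPM against 8.78 and 14.0 CPM, a gap of 3.05-fold (interval 2.59 to 3.60). No other lateral member starts within 100 kb of either gene. The 250 bases before their starts are shown, chosen as above, because they were the protein-coding lateral members with the largest gaps at more than 10 CPM in both lateral libraries.
Gdf10, chr14:33923337-33923586, plus strand: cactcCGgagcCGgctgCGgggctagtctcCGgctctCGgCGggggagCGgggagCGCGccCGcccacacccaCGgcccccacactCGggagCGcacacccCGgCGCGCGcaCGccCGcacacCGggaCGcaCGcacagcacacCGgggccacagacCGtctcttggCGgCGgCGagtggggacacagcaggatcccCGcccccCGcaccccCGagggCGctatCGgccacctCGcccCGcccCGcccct
Hpgd, chr8:56294302-56294551, plus strand: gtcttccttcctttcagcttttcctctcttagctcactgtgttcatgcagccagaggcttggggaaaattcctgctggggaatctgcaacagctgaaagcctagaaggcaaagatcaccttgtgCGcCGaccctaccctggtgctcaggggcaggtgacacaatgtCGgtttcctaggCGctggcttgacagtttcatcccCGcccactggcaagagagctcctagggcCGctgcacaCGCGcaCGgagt
The Gdf10 stretch held 35 CG dinucleotides and the Hpgd stretch 9, so that these members differed widely in this respect.

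Few genes of Wnt and BMP signalling met the rule. Of 30 tested Wnt genes, 2 were called higher on the lateral side and none on the midline side, beside 0.329% and 1.45% of all tested genes. Without overlap and by any amount, 9 stood above the midline libraries and 2 below, beside 25.3% and 24.4% of all tested genes. The 9 were thus near the background share, while the 2 below were fewer than theirs. Rspo3, a secreted enhancer of Wnt signals, stood at 25.0 and 31.2 CPM on the lateral side against 12.7 and 15.9 CPM on the midline side. Nkd1, an intracellular inhibitor that the pathway induces, stood at 54.6 and 61.9 CPM against 34.1 and 31.7 CPM. The secreted inhibitor Dkk4, which the list did not hold, stood at 3.90 and 3.18 CPM against 1.13 and 0.292 CPM. The ligand genes Wnt9b (28.2 and 41.7 CPM against 20.1 and 18.3 CPM), Wnt7b (33.2 and 42.7 CPM against 19.2 and 26.0 CPM) and Wnt6 (14.8 and 16.6 CPM against 9.38 and 10.2 CPM) and the pathway factor Lef1 (110.2 and 233 CPM against 66.7 and 105 CPM) had the same direction below the threshold. The secreted inhibitor Sfrp1 had the other direction, at 82.0 and 60.7 CPM on the lateral and 152 and 93.4 CPM on the midline side. Of 23 tested BMP genes, 9 stood above the midline libraries without overlap and 3 below, beside the same 25.3% and 24.4% of all tested genes. Among the 9 were the target genes Id1 (65.5 and 53.5 CPM against 40.8 and 34.4 CPM), Id3 (128 and 112 CPM against 78.7 and 63.7 CPM) and Msx1 (267 and 236 CPM against 196 and 113 CPM). The medians of the Wnt and BMP lists were -0.26 and -0.38. None of 17 tested FGF genes was called, and their median was 0.15.

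Several Wnt ligands are made by epithelium. None of 15 epithelial genes was called, and 4 stood above the midline libraries without overlap, which is near the 25.3% of all tested genes. The list median was -0.25. The summed level of the list was 511 and 405 CPM on the lateral side against 460.5 and 320.3 CPM on the midline side, so that the sides overlapped. Among the 4 genes without overlap was the keratin gene Krt14, at 33.7 and 65.3 CPM against 24.4 and 33.3 CPM. Cdh1 of the same list was even, with log2 differences of -0.05 between the nasal and 0.04 between the first arch processes. The part of epithelium in the Wnt values was not tested.

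**Figure D3:**
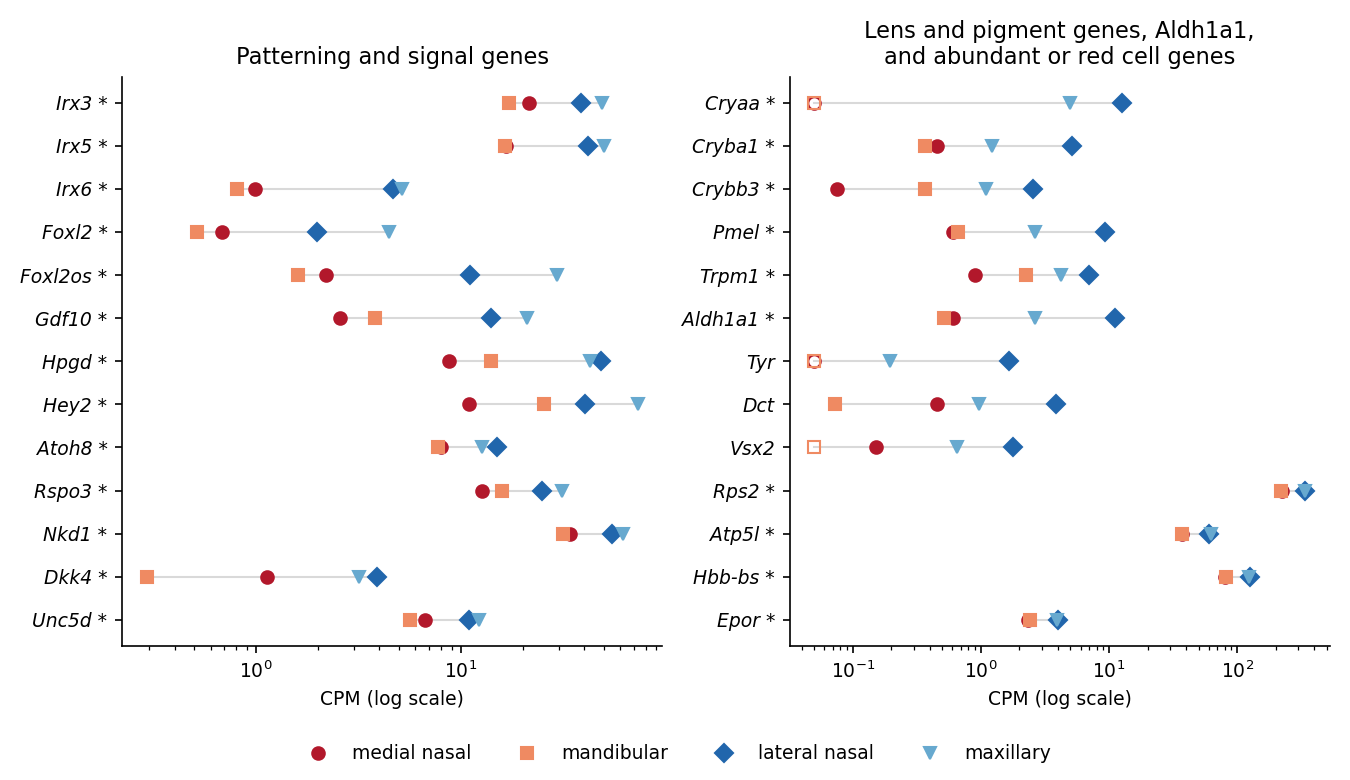
CPM on a log scale of genes of the lateral side in 4 libraries, 1 point each and no error bars; open symbols at the left edge mark libraries with 0 counts and an asterisk marks genes called higher on the lateral side. Irx5 stood at 41.6 and 50.1 CPM on the lateral side against 16.6 and 16.4 CPM, whereas the lens and pigment genes lie furthest to the right in the lateral nasal library.

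Genes of the lens and of pigment cells formed a separate lateral group that was strongest in the lateral nasal process, next to the eye. Cryaa, a lens crystallin, stood at 12.7 CPM in the lateral nasal and 4.94 CPM in the maxillary library and had 0 counts in both midline libraries, so that it was at least 21.8-fold higher on the lateral side by a limit of 3 counts per library. The crystallin genes Cryba1 (5.13 and 1.23 CPM against 0.454 and 0.365 CPM) and Crybb3 (2.54 and 1.10 CPM against 0.0757 and 0.365 CPM) and the melanosome gene Pmel (9.22 and 2.66 CPM against 0.605 and 0.658 CPM) were called as well. So were the melanocyte gene Trpm1, at 6.93 and 4.22 CPM against 0.908 and 2.27 CPM, and Aldh1a1, at 11.2 and 2.66 CPM against 0.605 and 0.512 CPM. Aldh1a1 makes retinoic acid and is well known from the dorsal retina. Of the 11 genes of the eye list 4 were tested and 3 called, namely Cryaa, Cryba1 and Pmel, beside 0.329% of all tested genes. These 3 were below 1 CPM in both midline libraries, so they were tested only through the lateral side, where they are high. The count is thus partly fixed by the choice of tested genes, and nothing is read from it. The other tested gene of the list had overlapping sides. The summed level of the list was 37.2 and 14.8 CPM on the lateral side against 2.95 and 2.92 CPM on the midline side. The pigment enzyme genes Tyr and Tyrp1 were at 0 counts in both midline libraries and at 1.67 and 0.990 CPM in the lateral nasal library. The part of eye tissue in the level of Aldh1a1 and of other lateral members was not tested. The lateral members Baiap2l2 and Adra1b were below 3 CPM in all libraries.

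Some of the most abundant lateral members belonged to groups that differed between the libraries as a whole. Rps2, a protein of the small ribosomal subunit whose reads can be shared with processed pseudogenes, stood at 339 and 339 CPM on the lateral side against 223 and 221 CPM on the midline side. Over 83 tested ribosomal protein genes Rps2 alone was called, beside 0.329% of all tested genes called on the lateral side. Of the 83, however, 79 were lower in the midline process of both pairs, and the list median was -0.20. Ribosomal protein genes held 3.85 and 3.86% of the counts on the lateral and 3.31 and 3.28% on the midline side. Replication histone genes, whose messages lack a poly(A) tail, had a median of -0.25 over 62 tested genes, of which 49 were lower in the midline process of both pairs. Hist2h2aa1 alone, with an uncertain count, was called on the lateral side, beside the same 0.329% of all tested genes. Atp5l, a subunit of the mitochondrial ATP synthase encoded in the nucleus, stood at 60.7 and 62.3 CPM against 37.0 and 36.9 CPM. Of all 14879 tested genes, 4989 were lower and 4923 higher in the midline process of both pairs.

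Hbb-bs, an adult beta-globin gene nearly identical to Hbb-bt, stood at 125 and 124 CPM on the lateral side against 79.9 and 81.8 CPM on the midline side. All 11 tested erythroid genes stood above the midline libraries without overlap, beside 25.3% of all tested genes. Of these 11 genes 1 was called, beside 0.329% of all tested genes, and their median was -0.41. The summed level of the list was 5028 and 4647 CPM against 3270 and 3480 CPM. The erythropoietin receptor gene Epor, a further member, stood at 4.02 and 3.90 CPM against 2.35 and 2.41 CPM. Red blood cell genes thus separated the sides, and their part in the values of other lateral members was not tested.

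On the midline side, entries that lie in introns and nuclear noncoding RNAs were such groups. Protein-coding genes made up 111 of the 216 midline members (0.856% of 12967 tested) and 42 of the 49 lateral members (0.324%). Of the midline members, 47 were TEC entries, a GENCODE class of putative transcripts that still lack experimental support. This was 12.2% of 386 tested TEC entries, and 0 (0%) were called on the lateral side. Antisense entries gave 22 midline members and 1 lateral member (6.2% and 0.282% of 355 tested). The lincRNA entries gave 6 and 0 (2.39% and 0% of 251 tested), and processed pseudogenes 11 and 3 (2.99% and 0.815% of 368 tested). The summed level of TEC entries was 3057 and 3039 CPM on the midline side against 2089 and 2091 CPM on the lateral side, and their median difference was 0.48. The strand setting of the counting is unknown, so reads of antisense or overlapping entries cannot be told from those of their partners.

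Most of the TEC members lay inside the introns of protein-coding genes. Of the 47, 37 (78.7%) lay in an intron on the same strand, in 26 host genes, beside 68.7% of all tested TEC entries. The median difference was 0.96 over these 37 entries and 0.36 over their hosts. Maml3, a coactivator of Notch, held 7 of them and stood itself at 61.9 and 43.9 CPM on the midline side against 38.2 and 36.8 CPM on the lateral side. The largest of its entries, C130089K02Rik, stood at 55.5 and 43.5 CPM against 21.8 and 22.5 CPM. Ncoa2 held 3 and stood at 130.0 and 128 CPM against 109 and 115 CPM. A930032L01Rik, an entry in an intron of Ptch1, stood at 1.29 and 1.39 CPM against 0.247 and 0.520 CPM. These entries were chosen for their difference and their hosts were not, so nothing is read from the gap between the 2 medians. Without that choice, over all tested TEC entries in such introns, the median was 0.52, and it was 0.13 over their hosts.

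Nuclear noncoding RNAs had a median of 0.40 over 16 tested genes, and 8 stood above the lateral libraries without overlap and 2 below, beside 24.4% and 25.3% of all tested genes, though none met the rule. Malat1 stood at 7735 and 6660 CPM on the midline side against 5383 and 5294 CPM on the lateral side, and the imprinted Kcnq1ot1 at 1065 and 1253 CPM against 717 and 725 CPM. Xist, expressed from the inactive X chromosome of females, stood at 1640 and 1513 CPM against 1190 and 1092 CPM. The Y-linked gene Kdm5d stood at 39.7 and 45.7 CPM against 39.1 and 33.2 CPM, so that each library held RNA of both sexes. Rmrp and Rpph1, short noncoding RNAs, had the other direction, with Rmrp at 2277 and 2092 CPM against 2963 and 3205 CPM. Mitochondrially encoded genes had a median of 0.27, which was 0.06 between the nasal and 0.49 between the first arch processes and came to 0.07 without the mandibular and 0.48 without the medial nasal library, with mt-Nd4l called on the midline and mt-Nd3 on the lateral side, both with uncertain counts. The part of these group differences in the midline and lateral members was not tested, and side and library make-up cannot be told apart with 1 library per process.

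**Figure D4:**
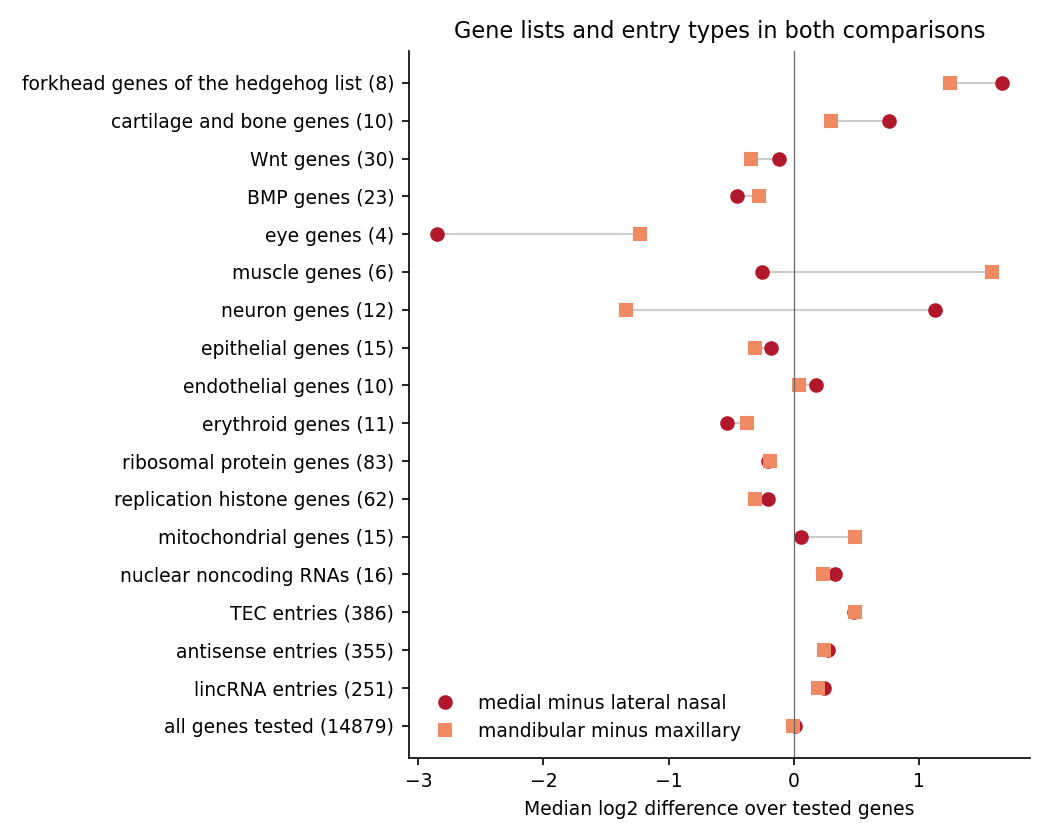
Median log2 difference of gene lists and entry types between the medial and lateral nasal libraries (circles) and between the mandibular and maxillary libraries (squares), with the number of tested genes in brackets. The forkhead list lies at 1.66 and 1.25 and the ribosomal protein list near -0.20 in both, whereas the neuron list lies at 1.13 and -1.34.

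The 2 neighbouring pairs of processes, which share no library, were also compared by themselves. Among 11701 genes at a mean of 5 CPM or more, 657 (5.61%) were at least 1.5-fold higher in the medial than in the lateral nasal process. Of these, 187 were also at least 1.5-fold higher in the mandibular than in the maxillary process, which is 28.5% (exact interval 25.0 to 32.1%), beside 4.2% of all 11701 genes, and 53 (8.07%) were at least 1.5-fold lower there, beside 3.12% of all genes. In the other direction, 214 genes (1.83%) were lower in the medial than in the lateral nasal process, and 72 of them, 33.6% (27.3 to 40.4%), were also lower in the mandibular than in the maxillary process, beside 3.12% of all genes, while 20 (9.35%) were higher there, beside 4.2%. The shared genes were 38.1% of those higher in the mandibular and 19.7% of those lower in it. Genes are not independent replicates, although the intervals of the 28.5% and 33.6% shares treat them so. Across genes the 2 differences correlated with r = 0.361. With protein-coding genes alone the 2 shares were 24.5% and 33.7%, an alternative chosen after seeing the data.

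**Figure D5:**
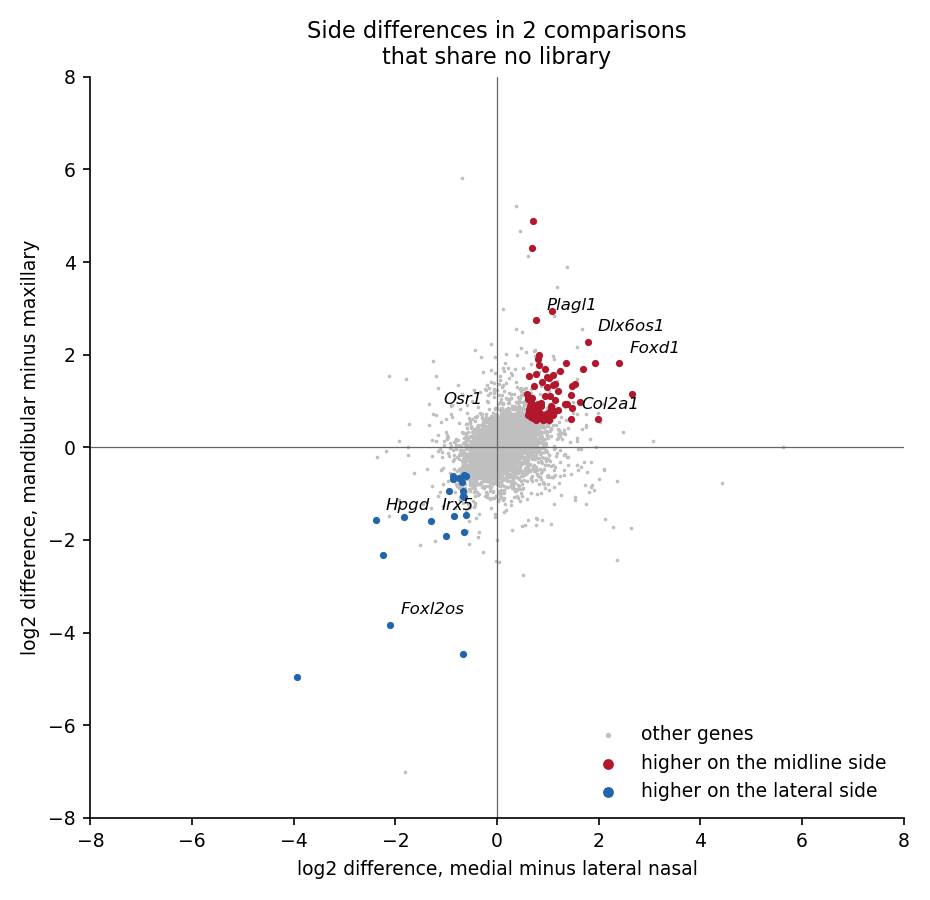
Difference in log2 (CPM + 0.5) of each of 11701 genes between the medial and lateral nasal libraries (x axis) and between the mandibular and maxillary libraries (y axis). By construction the 90 midline members (red) lie at the upper right and the 21 lateral members (blue) at the lower left, and Foxd1 lies far along both axes.

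The members varied in how far they stood from the threshold. For 185 of the 216 midline and 43 of the 49 lateral members the interval of the gap lay above 1, and for 34 and 14 above 1.5. The gap was at least 2-fold for 31 midline and 14 lateral members. On their higher side 62 midline and 16 lateral members reached 10 CPM in both libraries, while 105 and 27 were under 5 CPM in one. The 2 libraries of the higher side lay within 1.5-fold of each other for 183 midline and 31 lateral members, and the widest ratios were 14.2, for Rtl3 (5.30 and 75.2 CPM), and 4.2. The midline members just inside the threshold were Trim30a, Card6 and Cntn4, at ratios with 0.5 CPM added of 1.503, 1.504 and 1.505, and those just outside were Gm37105 at 1.499 and the entries ENSMUSG00000103888 and D130007C19Rik at 1.496 and, after rounding, 1.5. The lateral members just inside were Slc38a5, Epor and Hbb-bs, at 1.509, 1.511 and 1.512, and those just outside were Prss12, Rhov and 4933430I17Rik, at 1.496, 1.497 and 1.498. Of the noncoding members with the largest gaps, Gm26718 (4.84 and 6.64 CPM on the midline side, 0 counts on the other) and Rpl30-ps9 (7.11 and 14.9 CPM on the lateral side, 0 counts on the other) had uncertain counts. So did 11 midline and 6 lateral members in all, among them Gm20388 (16.3 and 13.6 CPM on the midline and 33.0 and 52.9 CPM on the lateral side), an entry annotated over chromosome 8 from 119910841 to 124345722.

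Midline members also lay nearer to one another in the genome than tested genes lay to them. Of 209 midline members with a position, 40 (19.1%) had another midline member with its start within 100 kb, beside 3.47% of 14773 tested genes. Both forkhead clusters were among them, and so were TEC entries that share a host gene, with 7 in Maml3, 3 in Ncoa2 and 2 in Itpkb. Entries in 1 host gene are thus counted as separate neighbours. TEC entries made up 21.8% of midline members and 2.59% of tested genes, so the 2 shares are not matched by entry type. Of 49 lateral members 2 (4.08%) did so, namely Foxl2 and Foxl2os, beside 0.941% of tested genes. The median transcript length of protein-coding members was 3299 bases on the midline and 1768 bases on the lateral side, beside 2647 over all tested, and the median span of their genes was 44391, 13930 and 25617 bases. Midline members were thus long genes and lateral members short ones on average. Scaled by transcript length as TPM by the authors, 177 genes were called on the midline and 61 on the lateral side, of which 93 and 31 were members here. With TPM and no minimum or added value, 191 of the 216 midline and 43 of the 49 lateral members kept a gap of 1.5-fold, and 56 and 7 were below 1 TPM in a library of their higher side.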

How the data were processed

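Bulk RNA-seq data of 4 facial processes from wild-type e11.5 mouse embryos were used, 1 library for each. Per the labels and the study's methods, the authors depleted ribosomal RNA from total RNA, made stranded libraries, aligned the reads to mm10 with STAR and deposited expected counts per gene from RSEM 1.4.1, which divides reads that match several genes, with GENCODE annotation. The deposited expected counts are estimated counts without normalization. The authors also deposited TPM, which was used as an alternative, and posterior mean counts: a gene's count was called uncertain where these differed by 10% or more from the expected count in a library. Of the gene entries, 42462 matched a symbol in GENCODE M21 on GRCm38 by ID and 884 did not. A further 26344 entries without a mouse Ensembl ID, holding 1 to 5 counts in a library, were not used. Promoter sequences came from RefSeq.

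Counts were scaled by the library total, 13216190 to 16163913 counts, so that 1 CPM was 13.22 to 16.16 counts and 3 counts, the limit that a count of 0 allows, were 0.186 to 0.227 CPM. Log2 values were taken after adding 0.5 CPM. With 1 library per process no p-value is given, and 95% intervals of count ratios are exact (Clopper-Pearson) and cover counting error only. Those of shares are exact binomial intervals over genes, which are not independent replicates. The members, lists and thresholds were chosen with earlier results of these data known. Named in each direction were the 15 protein-coding members with the largest gap, the 15 most abundant, the 3 noncoding ones with the largest gap, the 3 on each side of the threshold, genes of the hedgehog lists and up to 6 members of each other list. Foxd2os, 9130410C08Rik, Col9a2, Matn4, Trpm1, Rtl3, the neighbours of the forkhead and Iroquois clusters and the genes so marked in the text were named after their values were seen. The calling was tested on simulated counts with counting error only and the same rate in both libraries of a side. It therefore cannot show how the rule fares where the processes of a side differ. Alternatives were TMM factors from edgeR 4.0.16, size factors from DESeq2 1.42.0, protein-coding totals, TPM, pseudocounts of 0.1 and 2, other minimum levels and thresholds, removal of uncertain counts, and leaving out each library. Computations used R 4.3.3 and Python 3.11.15.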

Additional observations from a re-analysis of the deposited data

Results flagged for a closer look

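The odd-skipped factor gene Osr1 differed in opposite directions in the 2 pairs of processes. The log2 difference was -1.27 between the medial and lateral nasal processes and 0.72 between the mandibular process, with 57.5 CPM, and the maxillary process, with 34.7 CPM. The counting intervals of both folds (0.284 to 0.523 and 1.48 to 1.85) lay on opposite sides of 1, but with 1 library per process the difference between the pairs was not tested. The neuron list likewise had a median log2 difference of 1.13 between the medial and lateral nasal and -1.34 between the mandibular and maxillary libraries, which was not tested either.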

How the results depend on the processing

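The number of genes called higher on the midline side lay between 203 and 260 with TMM factors, DESeq2 size factors and protein-coding totals, and 193 to 216 of the 216 members were among them; on the lateral side it lay between 53 and 57 with 46 or 47 of the 49. A pseudocount of 2 gave 82 and 22 genes, a minimum of 5 CPM 111 and 22, a 2-fold threshold 31 and 14, a 3-fold threshold 2 and 5, and protein-coding entries alone, an alternative chosen after seeing the data, 111 on the midline side; each of these only removes genes. Without 1 library the counts ran from 565 to 1130 and from 181 to 379. The share of genes higher in the medial nasal that were also higher in the mandibular process was 24.6% with a pseudocount of 2, 23.2% with no minimum level, 18.5 and 11.9% with 2-fold and 3-fold thresholds and 24.5% over protein-coding entries. The share of lower genes was 24.9% with TPM, 21.6% with no minimum level and 23.5% with a 3-fold threshold. The hedgehog median was 0.34 with TPM, 0.21 with no minimum level or one of 5 CPM, and 0.29 to 0.39 without 1 library. The ribosomal protein median was -0.22 with DESeq2 size factors, -0.18 with protein-coding totals and -0.22 to -0.18 without 1 library, and the nuclear noncoding RNA median was 0.25 to 0.41 without 1 library. No list median given here changed sign. Among the named members Baiap2l2 reversed with TPM, to a log2 gap of -0.58. The cause was not tested. No paired analysis was possible because each process had 1 library and the replicate number 1 only.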

Other observations

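Skeletal muscle genes separated the first arch processes and not the sides. Of 6 tested genes of the muscle list none was called, and the median log2 difference was -0.25 between the medial and lateral nasal and 1.58 between the mandibular and maxillary libraries. The level of the giant sarcomere gene Ttn was 538 CPM (mandibular), 185 CPM (maxillary), 12.1 CPM (medial nasal) and 28.5 CPM (lateral nasal). The myogenic regulators Myod1 and Myog had 7.89 and 21.2 CPM (mandibular) against 1.82 and 5.13 CPM (maxillary) and reached at most 0.309 CPM in a nasal process. Endothelial genes were close to even, with a median of 0.09 over 10 genes, none of them called, and Cdh5 at 68.2 and 68.1 CPM on the midline against 58.3 and 57.1 CPM on the lateral side. Of 10 tested leukocyte genes none was called and the median was -0.03. Of 6 tested genes of the central neural list none was called, and their summed level was highest in the medial nasal library at 342 CPM, against 96.4 to 241 CPM elsewhere. Schwann cell precursor genes had a median of 0.05 over 6 tested genes, and none of 16 tested genes of lateral mesenchyme and orbit was called, with a median of 0.04.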
